A study of Setaria viridis with 5 samples.

Results

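Within young inflorescences of the grass Setaria viridis, 65 genes had high transcript levels in wild-type pools 2 and 3 and lower levels in wild-type pool 1 and in both pools of the bsl1 mutant. They were found among 35214 annotated genes, of which 13781 reached 5 CPM (fragments of a gene per 1e+06 fragments of its library, divided by the library's own total) in both of those wild-type pools, so the 65 genes are 0.472% of the genes that could have met the pattern. A member had at least 5 CPM in wild-type 2 and 3, and the lower of these values was at least 1.5 times the highest value of the other 3 libraries. A further condition, that the highest mutant value exceed 0.8 times the wild-type 1 value, removed no gene. The members were thus chosen by their values in all 5 libraries, and what those values show of the pattern itself is a description with no test.

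The study sequenced RNA of hand-dissected inflorescence primordia at 15 days after sowing, with 2 bsl1 mutant libraries and 3 wild-type libraries. The mutant group was homozygous for bristleless1 (bsl1), a mutation recovered after N-Nitroso-N-methylurea mutagenesis; the line was crossed back to A10.1, and homozygous progeny were selfed, so both mutant pools come from 1 mutant line. The wild-type group was the reference line A10.1, grown in the same chamber. Each library was 1 pool of about 10 primordia described as representative, and the plants received no treatment. In bulk pools, fewer cells of a type and less RNA per cell cannot be told apart.

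Setaria inflorescences branch into meristems that either form spikelets, the flower-bearing units, or sterile bristles. Brassinosteroids, named in the study's title, are plant steroid hormones that act on cell elongation, organ boundaries and meristem fate. The deposited identifiers carry no gene names, and 0 of the 35214 matched the available RefSeq gene table, so the 65 genes are given by identifier, without a function, and the tissue could not be checked against marker genes.

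Libraries held 49162793 and 34069429 fragments for bsl1 1 and 2, and 44739001, 32946287 and 25393087 for wild-type 1, 2 and 3. The libraries in which the members are high were therefore those with the smallest totals, and the part of depth in the pattern was not tested. The smallest fragment number of any member was 110 and 74 in the bsl1 libraries, and 41, 180 and 127 in wild-type 1, 2 and 3. Labels name the pools biological replicates but record no separate sowings or days, so p-values measure the spread between these pools.

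Together the members took 0.326% and 0.345% of the fragments of the bsl1 libraries, against 0.268%, 0.601% and 0.672% of those of wild-type 1, 2 and 3. The median member stood at 11.1 and 12.8 CPM in bsl1 1 and 2, and at 10.9, 22.9 and 28.7 CPM in wild-type 1, 2 and 3. These medians of both mutant pools and wild-type 1 lay below those of the other wild-type pools, as the choice of members fixed. Of the members, 21 had a mean under 10 CPM over the 5 libraries, 32 lay from 10 to under 100 CPM and 12 reached 100 CPM. The mean of the median member was 16.5 CPM, against 35.7 CPM for the median of the 13781 genes. The 6 members with most fragments held 56.3% of the members' summed CPM.

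**Figure D1:**
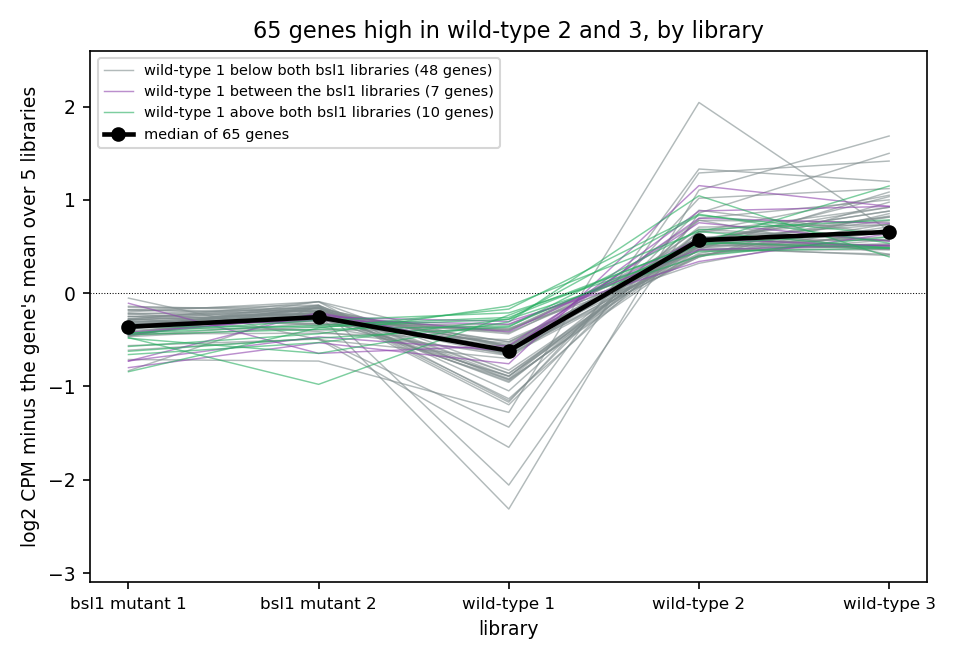
Each line is 1 of the 65 genes, plotted as its log2 CPM minus its own mean over the 5 libraries (vertical axis) in each library (horizontal axis), coloured by where wild-type 1 lies relative to the bsl1 libraries; the black line is the median. Wild-type 2 and 3 lie above the mean for every gene by the way the genes were chosen, and wild-type 1 is below both bsl1 libraries for 48 genes.

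The gap was modest for most members. The lower of wild-type 2 and 3 exceeded the highest other library by a median ratio of 1.66; the ratio was under 1.6 for 22 members, at least 2 for 8 and at least 3 for 2. The widest gap was that of Sevir.3G149800 on chromosome 3, at 2.24 and 2.35 CPM in bsl1 1 and 2, against 1.05, 8.07 and 8.82 CPM in wild-type 1, 2 and 3, a ratio of 3.44. Its fragment numbers were 110 and 80 in bsl1, against 47, 266 and 224 in wild-type. Wild-type 1 was the lowest library and the bsl1 libraries lay between the wild-type ones. Sevir.1G349400 on chromosome 1 had nearly the same profile, at 2.26 and 2.47 CPM in bsl1, against 1.27, 8.68 and 7.92 CPM in wild-type 1, 2 and 3, with a ratio of 3.21. These are the only members with a ratio of at least 3, and both were weakly expressed.

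Among more abundant members, Sevir.3G222000 on chromosome 3 had the widest spread among wild-type pools relative to wild-type 1. It stood at 38.9 and 39.5 CPM in bsl1 1 and 2, against 9.30, 99.5 and 149 CPM in wild-type 1, 2 and 3. The bsl1 pools nearly coincided, at 4.21 times wild-type 1 on average, while the mean of wild-type 2 and 3 was 13.4 times wild-type 1. Sevir.5G381300 on chromosome 5 had the same order at a lower level, with 3.38 and 3.49 CPM in bsl1, against 0.916, 6.92 and 10.8 CPM in wild-type 1, 2 and 3. Its wild-type 1 value rests on 41 fragments. In both genes the mutant libraries lay inside the range of the wild-type libraries.

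Other members had wild-type 1 values near those of the mutant. Sevir.1G042400 on chromosome 1 had 11.9 and 14.3 CPM in bsl1, against 12.2, 46.0 and 39.4 CPM in wild-type 1, 2 and 3. Sevir.9G461000 on chromosome 9 had 6.31 and 7.54 CPM in bsl1, against 6.79, 19.2 and 19.9 CPM in wild-type 1, 2 and 3. For these genes wild-type 1 lay between the mutant libraries, and wild-type 2 and 3 stood apart by ratios of 2.75 and 2.55. Sevir.7G088400 on chromosome 7 had wild-type 1 above the mutant, with 6.57 and 7.25 CPM in bsl1, against 7.87, 16.2 and 17.4 CPM in wild-type 1, 2 and 3.

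The high pools did not always match each other. Sevir.6G212300 on chromosome 6 had 2.58 and 2.55 CPM in bsl1, against 1.74, 17.5 and 6.73 CPM in wild-type 1, 2 and 3, so that wild-type 3 was at 0.386 of wild-type 2, the lowest such ratio of the 65 genes. Wild-type 3 and 2 were apart by 1.5-fold or more for 6 members, and wild-type 3 was the higher for 38 members (58.5%), against 49.4% of the 13781 genes. Quartiles of wild-type 3 over wild-type 2 were 0.950 and 1.23 for the members, against 0.900 and 1.09 for the 13781 genes. The remaining genes with the widest gaps were Sevir.2G266400, Sevir.4G238700, Sevir.2G292500 and Sevir.4G158100, with ratios of 2.23, 1.94, 1.94 and 1.92.

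**Figure D2:**
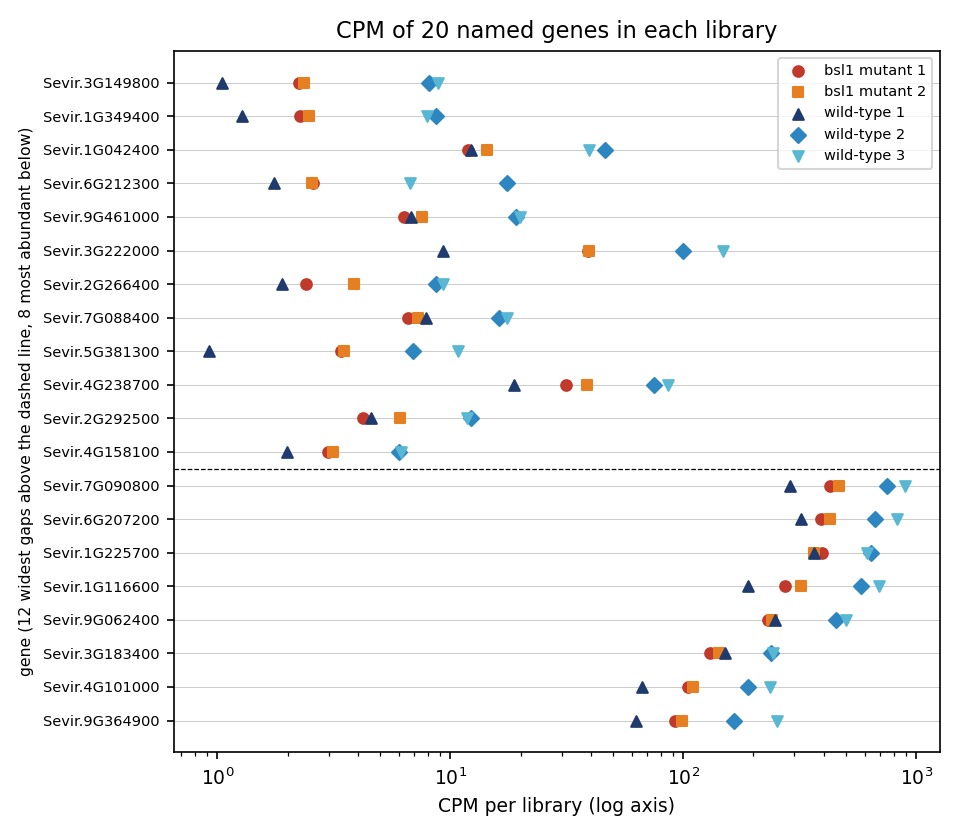
CPM on a log axis (horizontal) for the 12 genes with the widest gap (above the dashed line) and the 8 with the most fragments (below it), with 1 marker per library and no averaging. Sevir.3G222000 runs from 9.30 CPM in wild-type 1 to 149 CPM in wild-type 3 with both bsl1 libraries near 39 CPM, while Sevir.9G062400 has wild-type 1, at 247 CPM, just above the bsl1 libraries, at 232 and 241 CPM.

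The 8 members with the most fragments had ratios of 1.55 to 1.83, on both sides of the members' median. CPM is not divided by transcript length, so it orders these genes by fragments and not by transcripts. Sevir.7G090800 on chromosome 7 had the most, at 426 and 468 CPM in bsl1, against 287, 749 and 895 CPM in wild-type 1, 2 and 3. Sevir.6G207200 on chromosome 6 followed at 389 and 428 CPM in bsl1, against 319, 663 and 823 CPM in wild-type 1, 2 and 3. Both had wild-type 1 as the lowest library.

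For Sevir.1G116600 on chromosome 1 the values were 274 and 319 CPM in bsl1, against 189, 577 and 694 CPM in wild-type 1, 2 and 3. Sevir.1G225700 on chromosome 1 was at 394 and 364 CPM in bsl1, against 363, 638 and 613 CPM in wild-type 1, 2 and 3. Mutant values were well above wild-type 1 in Sevir.1G116600, whereas in Sevir.1G225700 bsl1 2 was within 1 CPM of wild-type 1. Sevir.9G062400 on chromosome 9 had 232 and 241 CPM in bsl1, against 247, 452 and 500 CPM in wild-type 1, 2 and 3, and Sevir.3G183400 on chromosome 3 had 130 and 143 CPM in bsl1, against 151, 238 and 244 CPM in wild-type 1, 2 and 3. In these genes wild-type 1 was above both mutant libraries, so the genotypes did not overlap. The list of 8 ends with Sevir.4G101000 and Sevir.9G364900, at 108 ± 3.68 and 95.6 ± 4.87 CPM in bsl1 (SD, n = 2), against 164 ± 87.6 and 160 ± 94.9 CPM in wild-type (SD, n = 3).

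Just inside the threshold lay Sevir.4G197900, Sevir.7G229200 and Sevir.9G099200, with ratios of 1.5001, 1.503 and 1.512. Sevir.4G197900 had 7.59 and 7.51 CPM in bsl1, against 5.99, 12.1 and 11.4 CPM in wild-type 1, 2 and 3. Just outside lay Sevir.4G233400, Sevir.1G028100 and Sevir.1G136900, with ratios of 1.4997, 1.496 and 1.489. Sevir.4G233400 had 15.9 and 15.2 CPM in bsl1, against 18.2, 27.3 and 58.7 CPM in wild-type 1, 2 and 3. Wild-type 1 was below both mutant libraries in Sevir.4G197900 and above both in Sevir.4G233400.

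The place of wild-type 1 relative to the mutant is described with no test, since the choice of members used all 3 of these libraries. Wild-type 1 was below both bsl1 libraries for 48 members (73.8%), between them for 7 and above both for 10. Over the 13781 genes it was below both for 51.6% and above both for 33.6%. Trimmed-mean (TMM) scaling, which sets library totals by the bulk of genes, changed these figures to 42 members below (64.6%) and 13 above, against 41.9% and 43.9% of the 13781 genes. The mean of the bsl1 libraries was a median of 1.246 times wild-type 1 over the members (1.19 after TMM scaling), against 1.04 over the 13781 genes (0.996 after it). It was at least 1.5 times wild-type 1 for 18 members and at least 2 times for 3. Shares at these cuts were not computed over the 13781 genes. The upper quartile of the ratio was 1.54 over the members and 1.18 over the 13781 genes. Nothing is read from the distance between the members' shares and those of the 13781 genes.

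The mutant pools were close for most members, as they were for most of the 13781 genes. The ratio of bsl1 2 to bsl1 1 had a median of 1.06 over the members, with a range of 0.689 to 1.61. For 11 members the pools were 1.2-fold or more apart. Quartiles of this ratio were 1.01 and 1.11 over the members, against 0.963 and 1.07 over the 13781 genes, whose median was 1.02. bsl1 2 was the higher for 49 members (75.4%), against 58.2% of the 13781 genes, and for 48 members (73.8%) against 51.7% after TMM scaling. For all 65 members the SD among the 3 wild-type libraries exceeded that between the 2 bsl1 libraries, a relation that the choice of members favours.

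The genotype comparison asks which transcripts differ in the mutant. It used the quasi-likelihood test of edgeR on the 20498 genes that passed the filter on low counts, all 65 members among them. No member was higher or lower in bsl1 at an adjusted p under 0.05. Over all tested genes 0.00976% were called higher and 0% lower. Without adjustment, p was under 0.05 for 9 members lower and 0 higher in bsl1, against 1.48% and 7.61% of all tested genes. The log2 fold of bsl1 over wild-type was below 0 for all 65 members, from -1.80 to -0.42, with a median of -0.68, while the median over all tested genes was -0.01. Since the members were taken for low mutant values in this same contrast, nothing is read from these counts. The smallest edgeR adjusted p of a member was 0.331 and the largest 0.839.

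Standard errors differed widely between members. Sevir.3G222000 averaged 39.2 ± 0.45 CPM in bsl1 (SD, n = 2) and 85.9 ± 70.7 CPM in wild-type (SD, n = 3), a log2 fold of -1.19 with a standard error of 1.01 and an edgeR adjusted p of 0.825. Sevir.3G183400 averaged 136 ± 9.12 CPM in bsl1 (SD, n = 2) and 211 ± 52.0 CPM in wild-type (SD, n = 3), a log2 fold of -0.69 with a standard error of 0.227 and an edgeR adjusted p of 0.428. All 9 members at an unadjusted p under 0.05 had wild-type 1 above both bsl1 libraries.

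Genotypes did not overlap, with both bsl1 libraries below every wild-type library, for 10 members, against 6.09% of all tested genes; after TMM scaling it was 13 members against 11.6%. In the other direction the shares over all tested genes were 21.1% and, after TMM scaling, 16.6%, with no member by construction. DESeq2 called 3 members lower, against 0.207% of the genes it tested. Chosen after their values were seen, these are Sevir.1G175900, Sevir.7G202100 and Sevir.6G140500. Sevir.1G175900 had 8.44 and 9.28 CPM in bsl1, against 11.4, 19.8 and 17.5 CPM in wild-type 1, 2 and 3, and a DESeq2 adjusted p of 0.0391 beside an edgeR adjusted p of 0.331. Its mutant values were lower than every wild-type value. The choice of members placed both bsl1 libraries below wild-type 2 and 3. Nothing is therefore read from the members' non-overlap and DESeq2 counts or from this DESeq2 adjusted p.

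Leaving out wild-type 1 changed the members' calls most. In that edgeR fit 57 of the 65 members were lower in bsl1 at an adjusted p under 0.05, against 1.253% of all tested genes, and the log2 folds ran from -2.29 to -0.69. This fit sets the low mutant libraries against the high wild-type libraries that chose the members, so the count repeats the choice. Sevir.6G212300, with the largest fold, was among the 8 not called, at an edgeR adjusted p of 0.0512, beside the spread of its wild-type 2 and 3 values.

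**Figure D3:**
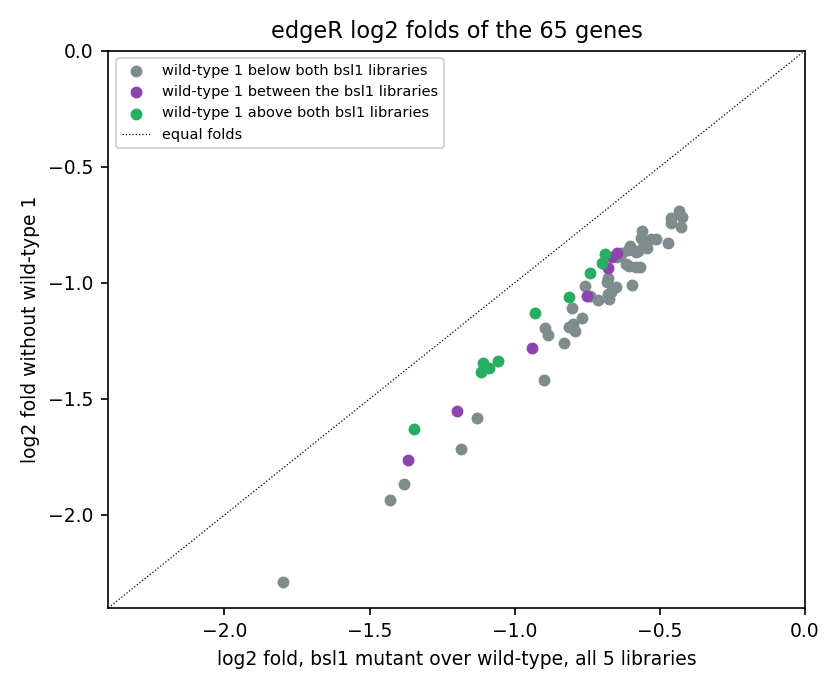
edgeR log2 folds of bsl1 mutant over wild-type for the 65 genes, from all 5 libraries (horizontal) and without wild-type 1 (vertical), coloured by where wild-type 1 lies. All points are under the dotted line of equal folds, and the median moves to -1.01 without wild-type 1, against -0.68 with it.

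In the deposited FPKM values the authors divided fragments by transcript length and library size. These values rest on fragments of the same libraries, so the counts given here follow in part from the choice of members. The lower of wild-type 2 and 3 was above the highest other library for 61 members and at least 1.5 times above it for 40, with a median ratio of 1.65. For Sevir.3G222000 the FPKM values were 21.1 and 21.6 in bsl1, against 5.10, 82.3 and 77.7 in wild-type 1, 2 and 3. The order of its libraries was that of the CPM values, with wild-type 2 and 3 exchanged.

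In 4 members the lower of wild-type 2 and 3 was under the highest other library in FPKM, and they are named for that after their values were seen: Sevir.7G202100, Sevir.9G525300, Sevir.1G126400 and Sevir.9G099200. Sevir.9G099200 had 7.77 and 5.70 FPKM in bsl1, against 8.28, 27.7 and 6.82 FPKM in wild-type 1, 2 and 3. The length implied by its fragments and FPKM was 620 and 947 bases in bsl1 and 631, 295 and 1473 bases in wild-type 1, 2 and 3, so it differed 4.99-fold between libraries. Over the members the median implied length was 1715 and 1724 bases in bsl1, against 1627, 1243 and 1764 bases in wild-type 1, 2 and 3. Wild-type 2 was also the shortest over the 13781 genes, at 1686 bases, against 1970 to 2164 bases in the others. The part of this difference in the members' FPKM values was not tested. Implied lengths were computed with each library's own fragment total. Another library scaling in the deposited FPKM therefore cannot be told apart from a difference in length.

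**Figure D4:**
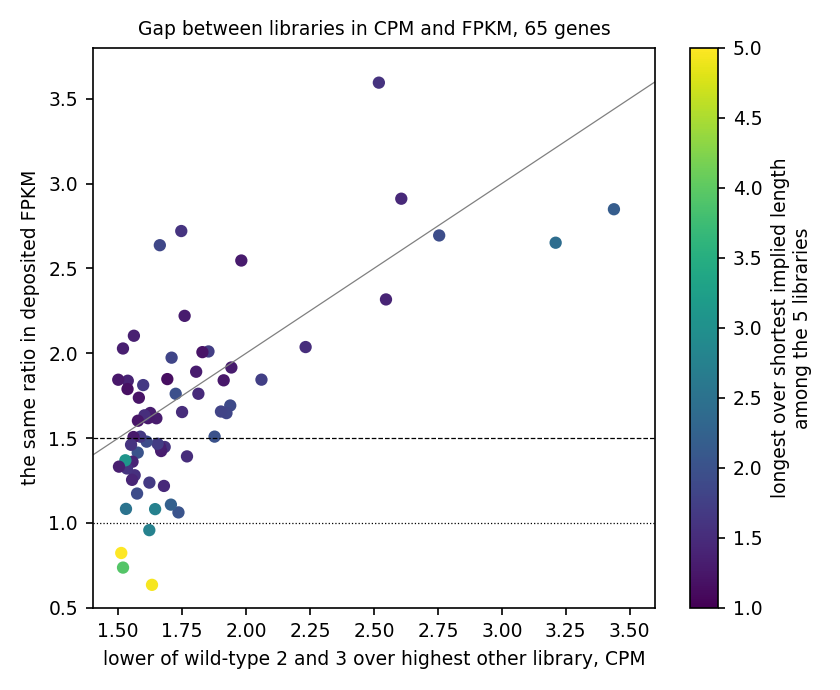
For each of the 65 genes, the lower of wild-type 2 and 3 over the highest other library in CPM (horizontal) and in deposited FPKM (vertical), coloured by how far the implied length differs between libraries. The dashed line marks 1.5 and the dotted line 1; 40 genes reach 1.5 in FPKM and 4 fall under 1.

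Transcript length and place in the genome were not part of the rule that chose the members. The length given here is the implied one, computed from FPKM and from the fragments that the rule used. Its median per gene fell as low as 7.84 bases among the 13781 genes and 74.7 bases among the members, so it is not read as a measured transcript length. The median implied length per gene was 1643 bases for the members and 1951 bases for the 13781 genes, with quartiles of 1258 and 2318 bases for the members and of 1293 and 2923 bases for the 13781 genes. Only 1 member, Sevir.2G266400, had a fragment estimate that was not a whole number (tolerance 0), against 1.72% of the 13781 genes.

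By their identifiers the members lay on all 9 chromosomes. Chromosome 4 held 11 members among 1120 genes (0.982%) and chromosome 1 held 14 among 1694 (0.826%), while chromosome 3 held 5 among 1726 (0.29%). Chromosome 9, with the most genes, held 10 among 2629 (0.38%). These shares were not tested. The longest run of neighbours, among genes with at least 5 CPM in wild-type 2 and 3, was the pair Sevir.2G266400 and Sevir.2G266700 on chromosome 2, which are 3 steps apart among all annotated genes. Sevir.2G266400 had 2.40 and 3.87 CPM in bsl1, against 1.90, 8.65 and 9.29 CPM in wild-type 1, 2 and 3. Sevir.2G266700 had 101 and 99.3 CPM in bsl1, against 73.9, 155 and 192 CPM in wild-type 1, 2 and 3. Both had wild-type 1 lowest and wild-type 3 highest, which is not particular to this pair. Wild-type 1 was below both bsl1 libraries for 48 of the 65 members, and wild-type 3 was above wild-type 2 for 38. The next closest pair, Sevir.9G019700 and Sevir.9G021400, was 17 steps apart.

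**Figure D5:**
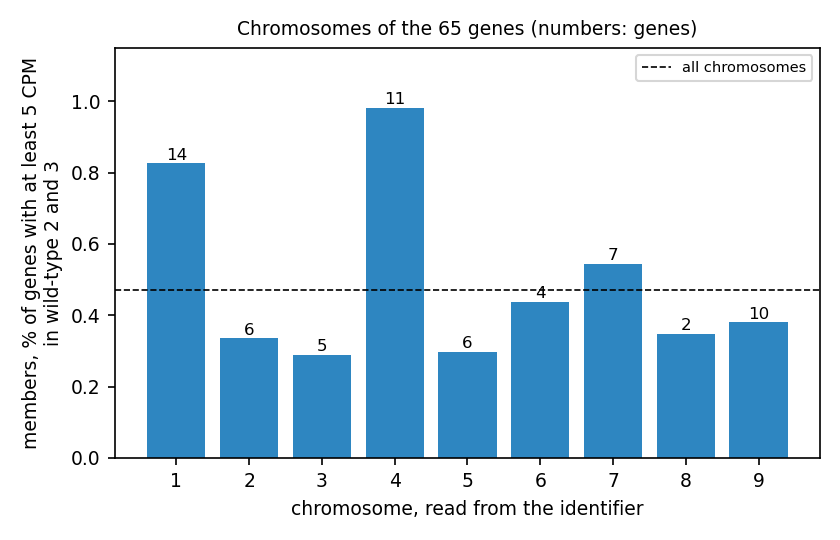
Members as a percent of the genes with at least 5 CPM in wild-type 2 and 3 (vertical axis, from 0) on each numbered chromosome (horizontal axis), with the number of members above each bar and the 0.472% of all chromosomes as a dashed line. Chromosomes 4 and 1 have the highest bars, at 0.982% and 0.826%.

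The mirror pattern was more frequent. With the same fold and CPM minimum, 305 genes were higher in wild-type 1 and both bsl1 libraries than in wild-type 2 and 3, against the 65 genes described here. The minimum applies to the high libraries in each case, which are 3 in the mirror pattern and 2 here, and the difference in number was not tested.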

How the data were processed

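RNA-seq libraries of 2 bsl1 mutant and 3 wild-type pools were analysed from 1 deposited table. Per the file headers, the authors deposited estimated counts of fragments, made per gene and library without normalization, and FPKM values; TopHat2 2.1.0 and Cuffdiff 2.2.1 are named in the submitters' processing notes, and the genome build, strand setting and length model are not stated there. CPM was computed from each column's sum. For the genotype test, estimated counts were rounded and filtered (filterByExpr, minimum count 10), scaled by TMM and tested with edgeR 4.0.16 in R 4.3.3 (quasi-likelihood, genotype only, Benjamini-Hochberg over all genes, threshold 0.05); standard errors are the log2 fold over the square root of F. The procedure was tested on simulated data. Alternatives used DESeq2 1.42.0 and limma 3.58.1 on log2(FPKM + 1) or log2(FPKM + 0.1) where the mean reached 1 FPKM. Genes were named by rule: 12 with the widest gap, 8 with the highest mean CPM, 3 on each side of the threshold, the longest run of neighbours, and any called member (none). Members and rules were chosen with earlier results of these data known. Gene lists could not be applied, since no identifier matched a name.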

Additional observations from a re-analysis of the deposited data

How the results depend on the processing

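The median log2 fold over the 65 genes stayed negative in each of the 11 alternatives of the genotype test, and no alternative called a member higher. Both follow largely from the choice of members, which took low mutant values in this same contrast, so nothing is read from them. DESeq2 called 3 members lower (517 genes higher and 46 lower in all), and the fit without the filter on low counts called 0 (48 and 4 in all). limma called 0 members, with 6 genes higher for a pseudocount of 1 and 1 for 0.1. Leaving out 1 library gave 0 to 57 members lower, 0 to 766 genes higher and 0 to 254 lower; each highest count came from leaving out wild-type 1, and a lone mutant library was taken to vary as the wild-type pools do. Labels do not tie the replicate numbers to a batch, and the libraries numbered alike had deviations correlated at 0.16 and -0.0275. The replicate block called 0 members and 0 genes and gave a median log2 fold of -0.34. Wild-type 3 was the only library of its number, so its block took up its values. The genotype term then rested on bsl1 1 against wild-type 1 and bsl1 2 against wild-type 2. That fit turned the sign of Sevir.3G222000 (0.28) and Sevir.5G381300 (0.31), with edgeR adjusted p-values of 0.977 and 0.969. For both genes bsl1 1 was above wild-type 1 and bsl1 2 was below wild-type 2. This order is not particular to them. By the choice of members bsl1 2 was below wild-type 2 in every member, and wild-type 1 was below both bsl1 libraries for 48. The bsl1 mean was 4.21 and 3.75 times wild-type 1 in Sevir.3G222000 and Sevir.5G381300, the largest such ratios of the members.

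A 2-fold threshold left 8 of the members. Leaving out 1 library gave 73 to 168 genes: 98 without bsl1 2, 168 without wild-type 2 and 142 without wild-type 3. Fewer libraries then had to meet the gap. The condition on the mutant rested on the remaining bsl1 library when the other was left out, and was not applied without wild-type 1. Of the members, 63 remained without bsl1 1 and 62 without bsl1 2, and all 65 remained without any 1 wild-type library. A member cannot fail the gap when a library is left out, so the 65 were fixed by the rule. Members lost without a bsl1 library failed only the condition on the mutant. TMM or median-ratio scaling gave 79 genes, 63 of them members, and FPKM gave 74, of which 33 were members (50.8% of the 65 and 44.6% of the 74). Minimums of 1 and 10 CPM gave 94 and 49. TMM-scaled positions and non-overlap counts were an alternative added after seeing the data. The fewest fragments of a member in any library were 41, and the genotypes had 2 and 3 pools.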
